A study of Mus musculus with 10 samples.

Results

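The Egr and Nr4a transcription factors were examined in the hippocampus of Tg(Dyrk1a) mice, a Down syndrome model that carries an additional copy of Dyrk1a on a bacterial artificial chromosome. The 7 members were all the genes the array's annotation names Egr1 to Egr4 and Nr4a1 to Nr4a3. They were listed by family, with earlier results of these data known. Each was measured by 1 transcript cluster, the set of probes that stands for a gene on the Affymetrix Mouse Gene 1.0 ST array, so that 7 of the 23410 annotated transcript clusters were members. In RefSeq's annotation of GRCm38.p6 they lie on 7 different chromosomes, among them Egr2 at chr10:67534469-67542188, Egr4 at chr6:85511121-85513589, Nr4a1 at chr15:101253902-101274795, Nr4a2 at chr2:57106830-57124003 and Nr4a3 at chr4:48045078-48086447. Both hippocampi of a mouse were extracted whole and as 1 sample, from 5 male Tg(Dyrk1a) mice and 5 male wild type littermates aged 16 weeks. The labels give the C57BL/6N background for both genotypes and call the mice of a group biological replicates. The methods of the study instead give C57BL/6J for this transgenic line. No stimulation of the mice and no hour of dissection is given in the sources used here. The transgene is present in all cells of the animal, and a single transgenic line was used.

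Both families are immediate early genes: synaptic activity raises calcium and the ERK and CREB pathways within neurons, and their transcription begins within minutes without new protein synthesis. The EGR proteins are zinc finger factors that bind GC-rich DNA, and several of them are held in check by the corepressors NAB1 and NAB2. The NR4A proteins are orphan nuclear receptors that act as monomers, as dimers or together with RXR, and are needed for the consolidation of hippocampal memory. Egr1 is the member most studied in long-term potentiation, Egr2 is best known from hindbrain patterning and myelination, Egr3 and Egr4 act beside them in activated neurons, and Nr4a2 is best known from the development of midbrain dopamine neurons.

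The DNA just before the start of these genes is shown for the short signals found in it. Whether these signals bear on covariation across mice was not tested. RefSeq windows of the GRCm38.p6 assembly were at hand for 5 of the 7 members, 1 window each for Nr4a1, Nr4a2, Nr4a3 and Egr4 and 5 for Egr2. The 250 bases before the start are printed 5′ to 3′ on the strand of the gene. Capitals mark TGACG or its reverse complement CGTCA, the core of the site of CREB, together with the EGR motif GCGNGGGCG on either strand and the CArG box bound by serum response factor.
Nr4a1, chr15:101266596-101266845, plus strand: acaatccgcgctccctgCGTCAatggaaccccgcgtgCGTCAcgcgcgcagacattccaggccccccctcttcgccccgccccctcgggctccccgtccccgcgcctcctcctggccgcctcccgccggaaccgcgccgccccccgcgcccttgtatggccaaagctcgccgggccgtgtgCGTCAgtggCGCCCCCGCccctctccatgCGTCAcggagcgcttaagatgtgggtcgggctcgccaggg
Nr4a2, chr2:57124004-57124253, minus strand: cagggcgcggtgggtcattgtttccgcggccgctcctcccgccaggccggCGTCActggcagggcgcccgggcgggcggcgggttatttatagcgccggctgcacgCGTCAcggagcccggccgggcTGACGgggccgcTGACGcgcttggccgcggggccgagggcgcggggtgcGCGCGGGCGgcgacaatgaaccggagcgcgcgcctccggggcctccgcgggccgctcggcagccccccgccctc
Nr4a3, chr4:48045055-48045304, plus strand: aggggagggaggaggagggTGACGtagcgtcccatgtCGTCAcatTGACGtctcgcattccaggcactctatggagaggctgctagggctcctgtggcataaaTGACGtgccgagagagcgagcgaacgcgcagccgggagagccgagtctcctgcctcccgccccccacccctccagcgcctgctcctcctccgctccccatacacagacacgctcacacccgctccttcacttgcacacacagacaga
Egr4, chr6:85513590-85513839, minus strand: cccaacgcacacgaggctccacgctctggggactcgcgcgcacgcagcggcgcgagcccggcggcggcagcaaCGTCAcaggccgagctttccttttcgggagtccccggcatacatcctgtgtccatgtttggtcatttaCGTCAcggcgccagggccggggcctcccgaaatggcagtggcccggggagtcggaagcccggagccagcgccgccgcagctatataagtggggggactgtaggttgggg
Egr2, chr10:67537619-67537868, plus strand: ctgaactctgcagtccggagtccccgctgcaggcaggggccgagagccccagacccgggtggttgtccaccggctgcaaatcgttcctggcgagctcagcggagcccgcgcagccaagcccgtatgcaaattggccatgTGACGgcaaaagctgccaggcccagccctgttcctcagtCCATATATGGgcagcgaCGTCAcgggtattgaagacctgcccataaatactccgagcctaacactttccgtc
The windows of Nr4a1, Nr4a2 and Nr4a3 each held 4 copies of TGACG counted on both strands, and that of Egr4 held 2. The Egr2 window shown and the 2 that overlap it held 2 copies, while its other 2 windows held none. Of all 32851 windows of 300 bases in the table, 20.8% held at least 1 copy, 5.01% at least 2 and 0.231% at least 4. The complete palindrome TGACGTCA, which contains TGACG on both strands, was in 1.79% of windows and in none of the members'. The EGR motif was found once before Nr4a1 and once before Nr4a2, against 5.55% of all windows. A CArG box stood before Egr2 in the window shown and in 3 of its other 4 windows, of which the overlapping ones share the same letters, against 1.63% of all windows. The NR4A motif AAAGGTCA, present in 1.51% of windows, was in none of the windows of the 5 genes. These matches describe letters only and were not tested as binding sites.

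Libraries were alike over all rows of the array. Medians of the 10 arrays lay between 6.57 and 6.66 on the log2 scale and correlations between arrays between 0.994 and 0.998. Dyrk1a itself had a log2 signal of 11.62 to 11.68 in the Tg(Dyrk1a) mice and of 11.14 to 11.28 in wild type, with a log2 difference of 0.47 ± 0.03 (SE, limma adjusted p = 0.000138), as the labels of all 10 mice state. The mean of 10 measured choroid plexus markers, centred on the 10 mice, was over 0.5 in Tg(Dyrk1a) mice 2 and 4 and in wild type mouse 5, and at or under 0 in the other 7. Wild type mouse 5 also had a thalamus and habenula score of 0.44, with the other 9 mice between -0.14 and 0.08.

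All 7 members had a lower mean in Tg(Dyrk1a) than in wild type, but none of the 7 differences passed the test. The largest were Egr2 and Egr1, at 0.855-fold and 0.919-fold of wild type, and the smallest was Egr3, at 0.975-fold. The smallest adjusted p among the members was 0.947 in limma, over all 23410 transcript clusters, of which 2 passed (0.00854%). At an unadjusted p under 0.05 the members called were Egr1 and Egr2, both lower, against 1.94% of all transcript clusters called lower and 2.99% called higher. The ranges of the genotypes overlapped for 7 of 7 members, and 0.273% of transcript clusters had all Tg(Dyrk1a) mice below all wild type mice. A lower mean of any size was found for 49.1% of all transcript clusters. The median log2 difference was -0.08 over the members, -0.09 over the 4 Egr genes and -0.08 over the 3 Nr4a genes, with 0.00104 over all transcript clusters. Without the 3 mice with a high choroid plexus score the median of the members was -0.04. Egr2 then had -0.17, Egr1 -0.14 and Egr3 -0.04, while Nr4a1 had -0.04, Egr4 -0.015, Nr4a2 -0.0075 and Nr4a3 0.022. The mice left out included Tg(Dyrk1a) mouse 2 and wild type mouse 5. Their log2 deviations from the mean of the 10 mice, averaged over the members, were -0.163 and 0.0964. With the choroid plexus score as a covariate and all 10 mice kept, the median was -0.08 and all 7 members were lower. Egr2 had -0.22 and Egr1 -0.12 in that fit, where the smallest limma adjusted p was 0.795. In RNA from whole tissue, less RNA per cell and fewer cells of a type cannot be told apart.

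**Figure D1:**
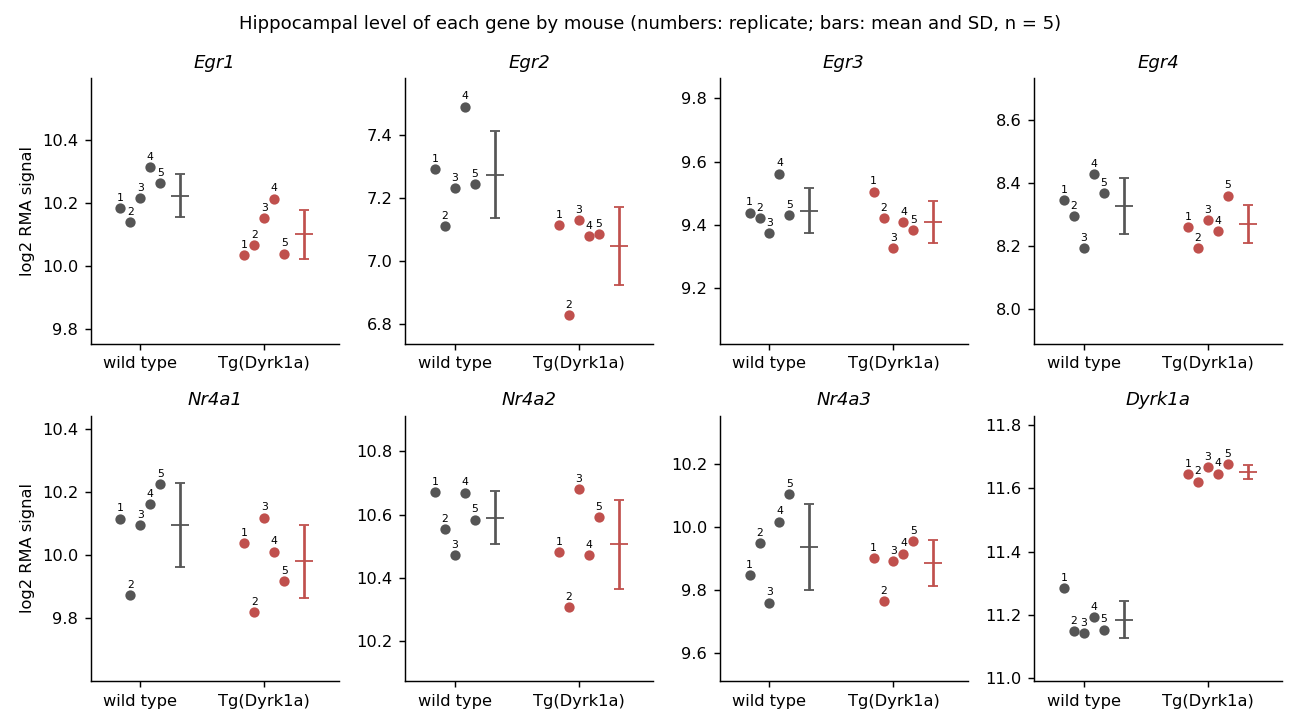
Log2 RMA signal of the 7 members and of Dyrk1a in each mouse, with wild type on the left and Tg(Dyrk1a) on the right of each panel, every panel spanning the same height. Points are single mice, numbered by replicate, beside bars for the group mean and its SD (n = 5). There is overlap between genotypes in each of the 7 members but not in Dyrk1a, where Tg(Dyrk1a) mice start at 11.62 and wild type mice end at 11.28.

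Among the Egr genes, Egr2 had the largest difference. Its log2 signal was 7.11, 6.83, 7.13, 7.08 and 7.09 in Tg(Dyrk1a) mice 1 to 5, and 7.29, 7.11, 7.23, 7.49 and 7.24 in wild type mice 1 to 5. All 5 Tg(Dyrk1a) mice were below the wild type mean of 7.27, yet wild type mouse 2 lay within the range of the Tg(Dyrk1a) mice, so that the genotypes overlapped. The log2 difference was -0.23 ± 0.07 (SE), with a 95% interval from -0.38 to -0.07, limma p = 0.00747 and adjusted p = 0.947, and an exact two-sided permutation test of the 10 mice gave p = 0.0238. Ranked by fold change alone, it was the 17th lowest of all transcript clusters. It was also the member whose mice differed most among themselves, with a within-genotype SD above that of 92.8% of transcript clusters. Of the ends of that spread, Tg(Dyrk1a) mouse 2 was lowest and wild type mouse 4 highest. Without the first the log2 difference was -0.17 (limma adjusted p = 0.998) and without the second it was -0.17 (limma adjusted p = 0.948). The signal of its probes was near the middle of the array, where the median transcript cluster had 7.29.

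Egr1 had a smaller difference with less spread between mice. Its log2 signal was 10.04, 10.07, 10.15, 10.21 and 10.04 in Tg(Dyrk1a) mice 1 to 5 and 10.19, 10.14, 10.22, 10.31 and 10.26 in wild type mice 1 to 5. Each of the Tg(Dyrk1a) mice was below the wild type mean of 10.22, but mice 3 and 4 lay inside the wild type range. The log2 difference was -0.12 ± 0.04 (SE), with a 95% interval from -0.22 to -0.02, limma p = 0.0181, adjusted p = 0.947 and exact permutation p = 0.0476. Without wild type mouse 4 it was -0.10 and its unadjusted p was 0.0519. Genes with all 5 Tg(Dyrk1a) mice below the wild type mean made up 7.07% of transcript clusters, and Egr1 and Egr2 were the members among them.

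Egr3 and Egr4 were close to even. For Egr3 the mean log2 signal was 9.41 ± 0.07 (SD, n = 5) in Tg(Dyrk1a) and 9.44 ± 0.07 in wild type, a log2 difference of -0.04 with a 95% interval from -0.13 to 0.06. Its interval on the linear scale ran from 0.914-fold to 1.04-fold. For Egr4 the means were 8.27 ± 0.06 and 8.33 ± 0.09, and the log2 difference of -0.06 had an interval from -0.16 to 0.04, or 0.897-fold to 1.03-fold. In both genes 4 of the 5 Tg(Dyrk1a) mice were below the wild type mean and the ranges of the genotypes overlapped broadly.

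Of the nuclear receptors, Nr4a1 had the largest difference. Its log2 signal was 10.04, 9.82, 10.12, 10.01 and 9.92 in Tg(Dyrk1a) mice 1 to 5 and 10.12, 9.87, 10.10, 10.16 and 10.22 in wild type mice 1 to 5. Wild type mouse 2 was lower than all the Tg(Dyrk1a) mice but mouse 2, and without it Nr4a1 joined Egr1 and Egr2 at an unadjusted p under 0.05. The log2 difference was -0.11 ± 0.07 (SE), with a 95% interval from -0.26 to 0.03 and limma adjusted p = 0.947. FCROS, the rank test of fold changes between pairs of mice that the study used, placed Nr4a1 together with Egr1 and Egr2 in its outermost 0.025 share at the lower end, where 2.11% of transcript clusters lay. With no trimming of the ranks that share held 2.14% of transcript clusters, with Egr1 and Egr2 inside and Nr4a1 outside.

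In Nr4a2 and Nr4a3 the within-genotype SD exceeded the size of the log2 difference, as it also did in Nr4a1, Egr3 and Egr4. The mean log2 signal of Nr4a2 was 10.51 ± 0.14 (SD, n = 5) in Tg(Dyrk1a) and 10.59 ± 0.08 in wild type, with the lowest and the highest of the 10 mice, at 10.31 and 10.68, both Tg(Dyrk1a). For Nr4a3 the means were 9.89 ± 0.07 and 9.94 ± 0.14, and the lowest and highest mice, at 9.76 and 10.10, were both wild type. The log2 differences were -0.08 with an interval from -0.22 to 0.05 for Nr4a2, and -0.05 with an interval from -0.18 to 0.08 for Nr4a3. The SD within genotypes exceeded that of 91.0% of transcript clusters for Nr4a1, 88.3% for Nr4a2 and 85.2% for Nr4a3, whereas Egr1, Egr3 and Egr4 lay at 54.2%, 47.0% and 57.0%.

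**Figure D2:**
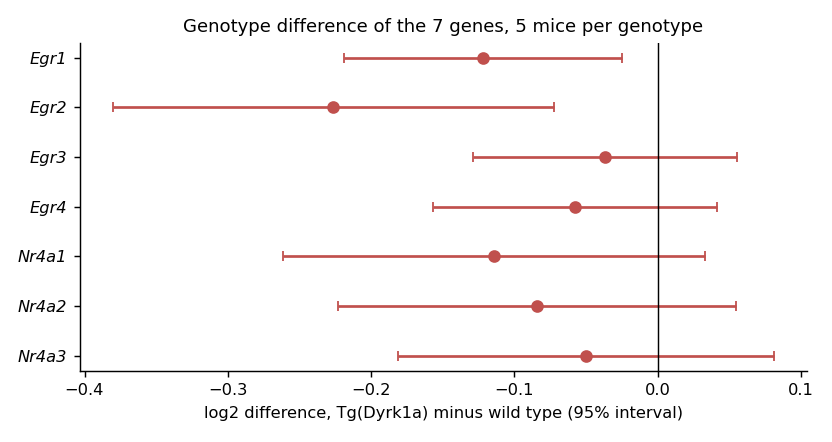
Log2 difference between Tg(Dyrk1a) and wild type for each member on the horizontal axis, with its 95% interval from limma over 5 mice per genotype. All 7 points lie below 0, from -0.23 for Egr2 to -0.04 for Egr3, and the intervals of Egr1 and Egr2 end below 0 before adjustment for 23410 tests.

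The same mice were high or low for several members. Wild type mouse 4 had the highest signal of the 10 mice for 4 members and was above its genotype mean for 7 of 7. Tg(Dyrk1a) mouse 2 had the lowest signal for 3 members, and was below its genotype mean for 6, with Egr3 the exception. Averaged over the members, the log2 deviation from the mean of the 10 mice was 0.157 in wild type mouse 4, 0.0964 in wild type mouse 5 and -0.163 in Tg(Dyrk1a) mouse 2. In the other 7 mice it lay between -0.0300 and 0.0504. Wild type mice 2 and 3 were below their genotype mean for 6 members each and had deviations like those of most Tg(Dyrk1a) mice.

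**Figure D3:**
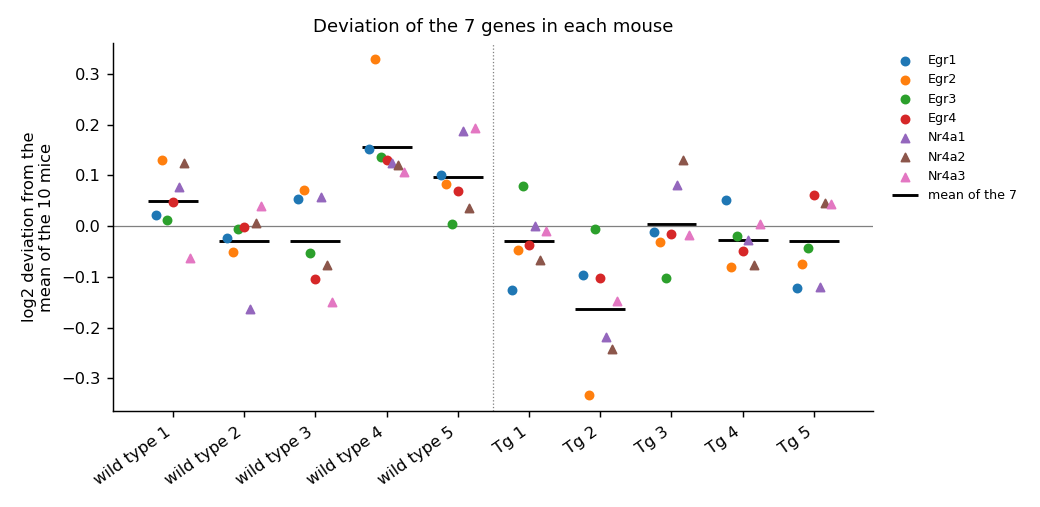
Log2 deviation of each member from its mean over the 10 mice, by mouse, with wild type left of the dotted line. Circles are Egr genes, triangles Nr4a genes and black bars the mean of the 7; the bar is highest in wild type mouse 4, at 0.157, and lowest in Tg(Dyrk1a) mouse 2, at -0.163.

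After removing the mean of each genotype, 20 of the 21 pairs of members had a positive Pearson correlation across the 10 mice. The mean over pairs was 0.42, the lowest was -0.05 for Egr3 with Nr4a2 and the highest 0.78 for Egr4 with Nr4a3. Of the correlations of a member with all other genes, 52.9% were above 0, with a median of 0.0297. Correlations over 0.5 were found in 8 pairs of members, against 10.5% of those with other genes. Pairs within the Egr family averaged 0.38, pairs within the Nr4a family 0.46 and pairs between the families 0.44.

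Egr2 and Egr4 were the most connected members, with mean correlations of 0.57 and 0.52 with the other 6, and Egr3 the least, with 0.20. Nr4a1, Nr4a3 and Nr4a2 had 0.45, 0.44 and 0.44, and Egr1 had 0.33. Egr4 with Nr4a2 had r = 0.75 and Spearman's rho = 0.81, with exact permutation p = 0.00993 and 0.00549. Egr4 with Nr4a3 had r = 0.78 and rho = 0.76, with exact permutation p = 0.0215 and 0.0365. Egr2 with Nr4a1 had r = 0.74 and rho = 0.70, with exact permutation p = 0.0315 and 0.0305. Egr2 with Nr4a2 had r = 0.72 and rho = 0.75, with exact permutation p = 0.0240 and 0.00889. None of the 21 pairs passed after Benjamini-Hochberg adjustment, where the smallest adjusted p was 0.166 for r and 0.0933 for rho by the exact permutation within genotypes.

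Part of this covariation rested on few mice. When the 2 mice farthest from the median of the first gene were left out of each pair, the mean correlation was 0.29, with 18 pairs above 0 and 4 over 0.5. Egr4 with Nr4a2 then had r = 0.72, Egr4 with Nr4a3 0.60 and Egr2 with Nr4a1 0.82. Egr2 with Nr4a2 had 0.38 and Egr2 with Egr4 dropped from 0.65 to 0.15 without Tg(Dyrk1a) mouse 2 and wild type mouse 4, and these relations rest on those mice. Leaving wild type mouse 4 out of all pairs gave a mean of 0.28, with 5 pairs below 0, the lowest value with any single mouse left out.

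**Figure D4:**
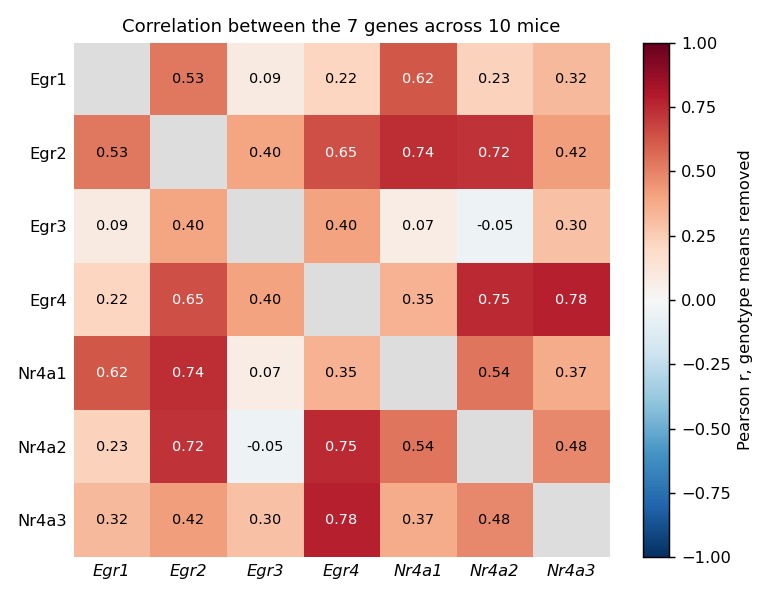
Pearson correlation between each pair of members across 10 mice after removal of the genotype means, from blue for negative to red for positive. The highest value is 0.78 for Egr4 with Nr4a3, and the row of Egr3 is the palest, with a mean of 0.20.

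The genes most like the members were ranked by their mean correlation with the 7 across the 10 mice, among 9728 other genes at or above the median signal. The leading 10 were Rab11fip5 (0.69), Gadd45b (0.68), Gmcl1 (0.67), Pnck (0.66), Rusc1 (0.65), Rfx4 (0.65), Nab2 (0.65), Slc2a3 (0.65), Plp2 (0.65) and Cdkl1 (0.64). Nab2 is the EGR corepressor and a known EGR target, and its highest correlation was with Egr4. Gadd45b is an activity-induced gene of DNA demethylation, and its highest correlation was with Egr2. Taken one member at a time, the closest gene was Spry3 for Egr1 (r = 0.92), Cdkl1 for Egr2 (0.97), Arap1 for Egr3 (0.92), Apmap for Egr4 (0.95), Clba1 for Nr4a1 (0.94), Plcxd2 for Nr4a2 (0.98) and Capn5 for Nr4a3 (0.96). These values describe 10 mice and were the highest of 9728. The members themselves were further down such rankings, from place 191 of all other genes (Egr4 for Nr4a3) to place 12863 (Nr4a2 for Egr3).

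The lists around the families are described by their counts, and no gene of them passed the limma test (adjusted p of at least 0.947). Of 5 partners and corepressors 3 were lower in Tg(Dyrk1a), with a median log2 difference of -0.04, and Nab1 had -0.08 and the RXR genes Rxrb and Rxrg had -0.04 and -0.10. All 5 had a positive mean correlation with the members, with a median of 0.25, where 53.6% of all other genes were above 0. Of 35 measured genes of the calcium, ERK and CREB signalling upstream, 18 were lower with a median of -0.0011, and Cacna1d, a calcium channel subunit that couples activity to the nucleus, had 0.08, Map2k2 0.05 and the coactivator Crebbp -0.06. Only Cacna1d of these was at an unadjusted p under 0.05, higher, against 2.99% of transcript clusters called higher. Of 8 feedback phosphatases and inhibitors 5 were lower, with a median of -0.03. Their leading genes were Spred1 (-0.09) and the ERK phosphatases Dusp6 (-0.11) and Dusp1 (-0.14), and Dusp1 and Dusp6 had mean correlations of 0.62 and 0.57 with the members, at places 39 and 151 of all 19931 other genes.

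Most of the other transcription factors of the immediate early response had a positive mean correlation with the members across mice. The effectors were about evenly split between positive and negative. Of 22 other rapidly induced transcription factors 15 were lower in Tg(Dyrk1a), with a median log2 difference of -0.04. The mean correlation with the members was positive for 20 of 22, with a median of 0.31, where 53.6% of all other genes were above 0. At an unadjusted p under 0.05, against 1.94% of transcript clusters called lower, were Fosb (-0.17), the neuronal factor Npas4 (-0.30) and Klf2 (-0.12), with mean correlations of 0.53, 0.51 and 0.34. Of 25 activity-induced effectors 15 were lower, with a median of -0.02, and 13 correlated positively, with a median of 0.02, near the 0.03 of all other genes. Among them Arc, which drives the removal of AMPA receptors, had -0.23 and a mean correlation of 0.48, Scg2 had 0.12 and -0.0047, and Zfp36 had -0.08 and -0.25. Arc (lower) and Scg2 (higher) were the effectors at an unadjusted p under 0.05, against 1.94% of transcript clusters called lower and 2.99% called higher. The difference in covariation between these lists was not tested.

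The scores of some cell type markers were correlated with the members across mice, though none of the relations passed after adjustment. Scores were the mean of centred log2 signals of a marker list, and 98 relations of 7 members with 14 lists were computed. The dentate granule cell score was negatively correlated with each member: r was -0.86 for Nr4a1, -0.75 for Nr4a2, -0.73 for Nr4a3, -0.71 for Egr2, -0.66 for Egr4, -0.45 for Egr1 and -0.04 for Egr3, whose rho was 0.02. For Nr4a1 rho was -0.90, the exact permutation p were 0.00264 and 0.00153, and the adjusted p 0.154 and 0.150, the smallest of the 98. With the 2 mice farthest from the median of the score left out, Nr4a1 had r = -0.75, Nr4a2 -0.81, Egr2 -0.83 and Nr4a3 -0.31. All 10 dentate granule cell markers had a negative mean correlation with the members, with a median of -0.54. The score was between -0.07 and 0.23 in Tg(Dyrk1a), highest in mouse 2, and between -0.20 and 0.05 in wild type, lowest in mouse 5, the mouse with high thalamus and habenula and choroid plexus scores. In Tg(Dyrk1a) 9 of its 10 markers were higher, 3 of them at an unadjusted p under 0.05, against 2.99% of all transcript clusters, and none after adjustment. Without wild type mouse 5 the median log2 difference of the members was -0.08 and their mean correlation 0.45.

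With the dentate granule cell score as a covariate in the fit, the median log2 difference of the members was -0.0081, 5 of 7 were lower (49.6% of all transcript clusters in that fit), and none was at an unadjusted p under 0.05 (1.86% called lower). Egr2 then had -0.13 and Egr1 -0.09 (limma adjusted p = 0.957 for both), while Egr4 had -0.0081 and Nr4a1 -0.0077. Nr4a2 and Nr4a3 had 0.0020 and 0.028. The mean correlation over pairs of members was 0.11 with the score taken out, with 9 of 21 pairs below 0. This covariate was added after seeing the data, as one of the lists most correlated with the members. Because the score was picked for that correlation, the smaller values with it taken out are no separate evidence. The score and the members were measured in the same RNA, and which of them leads was not tested.

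The endothelial and mural cell score had a positive r with each member, from 0.35 for Egr1 to 0.83 for Egr4. By rank the relation was absent for Egr3 (rho = 0.006) and weak for Egr1 (0.15), with rho of 0.55 to 0.73 for the other members. All 11 of its measured markers had a positive mean correlation with the members, with a median of 0.39. The score was 0.02 to 0.11 in Tg(Dyrk1a) and -0.17 to 0.01 in wild type, so that the genotypes did not overlap, and 10 of 11 markers were higher in Tg(Dyrk1a), 5 at an unadjusted p under 0.05, against 2.99% of all transcript clusters, and none after adjustment. With the 2 mice farthest from the median of the score left out, r was between 0.45 for Nr4a2 and 0.78 for Egr2. With this score as a covariate all 7 members were lower with a median of -0.22, where 52.8% of all transcript clusters were lower. At an unadjusted p under 0.05 were 5 members, Egr1, Egr2, Egr4, Nr4a2 and Nr4a3, against 3.14% of transcript clusters called lower in that fit, the smallest limma adjusted p being 0.683. The mean correlation over pairs was then 0.18, with a score that was likewise picked after seeing its correlation with the members. Because the score separates the genotypes, its part and that of the genotype cannot be told apart in this fit.

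The general neuron score varied little, from -0.04 to 0.04 in both genotypes, and 4 of its 10 markers were higher in Tg(Dyrk1a). Even so it correlated with Egr4 (r = 0.82), Nr4a2 (0.74) and Nr4a3 (0.71), and hardly with Egr3 (-0.05). The interneuron score, with 9 of 10 markers higher in Tg(Dyrk1a), had a positive r with each member, from 0.08 for Egr1 to 0.73 for Nr4a2. Egr2 had 0.67, Nr4a1 0.64 and Egr4 0.62, while by rank Egr1 had rho = -0.04. All 10 interneuron markers had a positive mean correlation with the members, with a median of 0.34. The subiculum and deep cortex score correlated with Nr4a2 (0.72) and was uneven over the rest, from -0.27 for Egr3 to 0.51 for Egr2. The oligodendrocyte score had r from -0.03 for Egr1 to -0.65 for Nr4a2. For all members but Egr3 this rested on Tg(Dyrk1a) mouse 2 and wild type mouse 3. Without those mice Egr1, Egr4, Nr4a1, Nr4a2 and Nr4a3 had positive values of 0.29 to 0.69, and Egr2 had -0.03. Egr3 had r = -0.40 with all 10 mice and -0.55 without those mice. The meninges and fibroblast list had the largest median difference between genotypes of the 14 marker lists, 0.23, with 11 of 12 markers higher in Tg(Dyrk1a) and 4 at an unadjusted p under 0.05, against 2.99% of transcript clusters. Its score was -0.09 to 0.24 in Tg(Dyrk1a) and -0.19 to 0.05 in wild type, and its r with the members ran from -0.03 for Nr4a2 to 0.53 for Egr1. Of the thalamus and habenula markers 9 of 10 were lower in Tg(Dyrk1a), with a median of -0.12, and r ran from -0.27 for Egr3 to 0.43 for Nr4a1. The score of this list was 0.44 in wild type mouse 5, with all other mice of both genotypes between -0.14 and 0.08. Of the 98 relations, 12 were at an unadjusted exact permutation p under 0.05 and none after adjustment. The part of any of these cell types in the differences was not tested beyond the fits given.

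**Figure D5:**
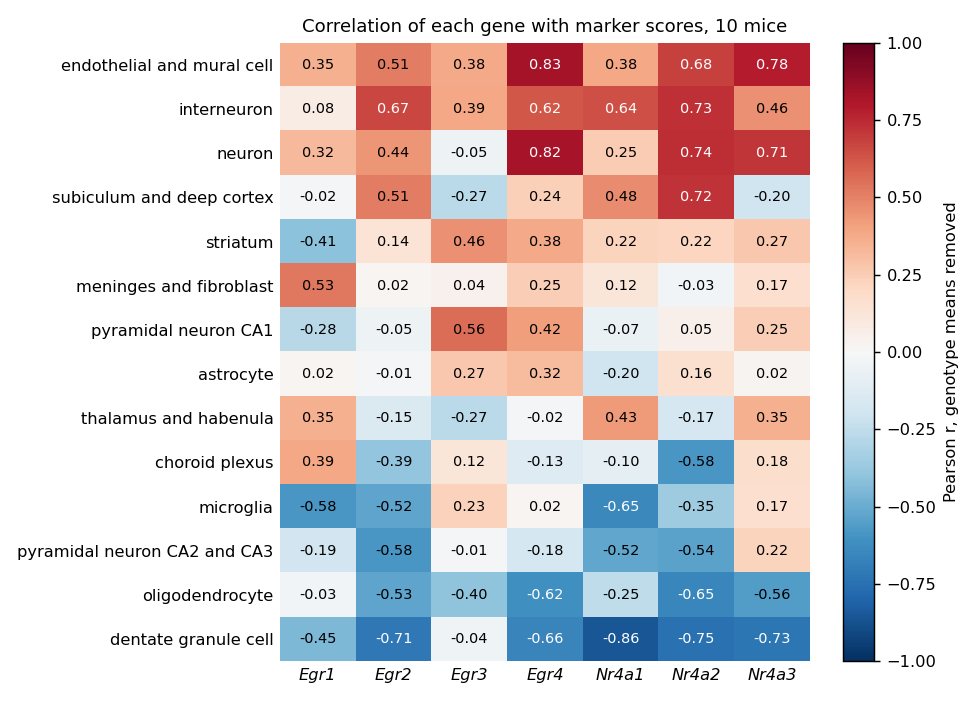
Pearson correlation across 10 mice, genotype means removed, of each member (columns) with the score of each marker list (rows), rows ordered by their mean. The bottom row, dentate granule cell, is negative for 7 of 7 members, down to -0.86 for Nr4a1, and the top row, endothelial and mural cell, is positive for 7 of 7, up to 0.83 for Egr4.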

How the data were processed

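The deposited log2 values were used as they stand. Per the labels and the methods of the study, total RNA of both hippocampi of each mouse was hybridised to 1 array, the authors summarised and normalised the probes by RMA (robust multi-array average), and the annotation refers to mm10. RMA removes background and equalises arrays, so that small differences in total RNA are lost, and a fold change understates that of a dim gene. Depth does not apply to arrays. Precision is set by the 5 mice per genotype.

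Of 35556 transcript clusters, 23410 had a gene symbol in the platform annotation (21789 with 1 symbol, 1621 with several), and these were tested with limma 3.58.1 in R 4.3.3, genotype as the only term, with Benjamini-Hochberg adjustment over all of them at 0.05. A gene with several transcript clusters was represented by that of highest mean, and each member had 1. FCROS was rewritten from its description with a trim of 25%. Exact permutation tests were two-sided over 252 assignments of mice to genotypes, with 0.00794 the smallest p possible, and, for correlations, over 14400 permutations within genotypes. Correlations used values minus genotype means. Fits were tested on simulated data. Replicate numbers were not used to pair mice.

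Genes named were the members, the 3 with the smallest p in each list around the pathway, and those most correlated with the members, leaving out predicted genes and clone names. The members, lists and rules were chosen with earlier results of these data known. The covariates of dentate granule cell and of endothelial and mural cell scores were added after seeing the data, because these lists were most correlated with the members. Promoter windows reach from 250 bases before to 50 after a start. Other alternatives changed scaling, filters, the fit and the mice included.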

Additional observations from a re-analysis of the deposited data

Results flagged for a closer look

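Egr2 in Tg(Dyrk1a) mouse 2 stood apart from its group. At 6.83 on the log2 scale, its gap to the nearest of the other 4 mice was 0.834 of the range of the group, above the 95% critical value of Dixon's test for 5 samples. Of 16 groups checked, each member and Dyrk1a in each genotype, this was the only 1, and chance marks about 1 in 20. Without this mouse the log2 difference of Egr2 was -0.17.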

How the results depend on the processing

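Under 21 alternatives of the fit, 144 of 147 member differences kept their direction and none passed the adjusted threshold, the smallest adjusted p in limma being 0.683. The direction turned for Nr4a3 without the mice with a choroid plexus score over 0.5 (0.022) and, with the dentate granule cell score as a covariate, for Nr4a2 (0.0020) and Nr4a3 (0.028). With that covariate the members at an unadjusted p under 0.05 numbered 0, the median log2 difference was -0.0081 and the mean correlation 0.11. With the endothelial and mural cell score as a covariate these values were 5, -0.22 and 0.18. Both scores were picked for their correlation with the members. With each mouse left out in turn the number at an unadjusted p under 0.05 was 1 to 3, being 1 (Egr2) without wild type mouse 4, the median log2 difference was -0.13 to -0.04 and the mean correlation 0.28 to 0.48. FCROS counted 3 members with its trim and 2 with none. An average over several transcript clusters of a gene could not differ, since each member has 1.

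Mice that share a replicate number did not deviate together (correlations of 0.28, 0.01, -0.11, -0.29 and -0.06 for numbers 1 to 5), and 2 of 10 arrays correlated best with their own number. With the replicate number as a block, the median log2 difference was -0.08, 3 members (Egr1, Egr2 and Nr4a1) were at an unadjusted p under 0.05, 0 passed the adjusted threshold and the mean correlation was 0.35.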
